A study of Mus musculus with 2 samples.

Results

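The nuclear genome encodes most subunits of the mitochondrial respiratory chain, and 81 such genes were measured here, out of 19938 genes with a probe set of their own. They were taken by symbol, as the Nduf genes of complex I (35 genes), the Sdh genes of complex II (4), the Uqcr genes of complex III (8), the Cox genes of complex IV (17) and the Atp5 genes of complex V (17). Neural precursor cells had been taken from the forebrain of E11.5 mouse embryos (Jcl:ICR strain). A first culture received a control retrovirus, and a second received an HMGN1 retrovirus that adds a nucleosome-binding chromatin protein. Per the labels, both cultures grew with FGF2 and EGF until they were replated 3 days after infection, and both then spent 1 day without these mitogens before total RNA was taken. A single array was hybridised per virus. The comparison asks how extra HMGN1 alters RNA levels when precursor cells leave the growth factors. The labels name no promoter for the virus and no share of infected cells.

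The respiratory chain passes electrons from NADH and succinate to oxygen and uses the energy to pump protons across the inner mitochondrial membrane. Complex I takes electrons from NADH and complex II from succinate, complex III passes them from ubiquinol to cytochrome c, complex IV hands them to oxygen, and complex V, the ATP synthase, makes ATP from the returning protons. A few core subunits of complexes I, III, IV and V are encoded in mitochondrial DNA, so each of these complexes depends on genes of both genomes. The balance of glycolysis and respiration is known to shift as neural precursors turn into neurons and glia.

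A difference is given throughout as HMGN1 virus minus control virus on the scale log2(intensity + 16), and intensities are probe set brightness on a linear scale, which do not rank genes against each other. A gene counted as detected when its mean over both arrays reached 85.9 in intensity, the level that 95 percent of 1035 probe sets for olfactory receptors stayed under. With 1 array per virus there is no replicate error and no test, so the values describe these 2 RNA samples. Different probe sets of the same gene differed with an SD of 0.0891 over 683 genes, a measure of scatter that leaves out culture and RNA preparation. Hmgn1 itself stood at 230 and 348, a difference of 0.57. Of the markers on the array, all 9 of precursor cells were detected, as were 7 of 7 neuronal, 5 of 6 astrocyte and 6 of 6 oligodendrocyte lineage markers, while 1 of 7 microglial, 0 of 5 endothelial, 0 of 3 erythroid and 3 of 5 mesenchymal markers were. Their summed intensities on the control and HMGN1 arrays were 24633 and 24414 for precursor, 7751 and 8038 for neuronal, 2952 and 3233 for astrocyte and 5232 and 5168 for oligodendrocyte lineage markers, with median differences of -0.025, 0.087, 0.28 and 0.020 over the detected markers. The astrocyte sum is led by Aldoc (-0.072), while Gfap, the astrocyte filament protein, stood at 406 and 615 (0.58), the largest positive difference of all detected genes. The mesenchymal sums were 515 and 494, with a median difference of -0.12. Their part in the differences below was not tested, and in such bulk RNA fewer cells of a type and less RNA per cell cannot be told apart.

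Respiratory chain genes as a whole were close to their control values. Of the 81 genes, 76 were detected, 37 of them higher and 39 lower with the HMGN1 virus. Their median difference was -0.0068, beside 0.027 for all 11325 detected genes, of which 38.4% were lower and 60.1% higher. The quartiles of the members lay at -0.078 and 0.052. At a size of 1.1-fold, a log2 difference of 0.14, 5 members were higher and 8 were lower, which is 6.58% and 10.5% of the detected members. Among all detected genes 13.1% were at least 1.1-fold higher and 7.2% at least 1.1-fold lower. Centring the differences on the median of detected genes turned the 5 and 8 into 4 and 14, where 8.38% of all detected genes were at least 1.1-fold higher and 10.5% lower. Removal of the intensity trend gave 4 and 16, beside 8.52% and 9.72% of all detected genes, and quantile normalization gave 7 and 10, beside 12.4% and 7.15%. No member reached a log2 difference of 0.32 either way, which 0.494% of detected genes passed upwards and 0.521% downwards, nor 1.5-fold, which 0% passed upwards and 0.0706% downwards.

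**Figure D1:**
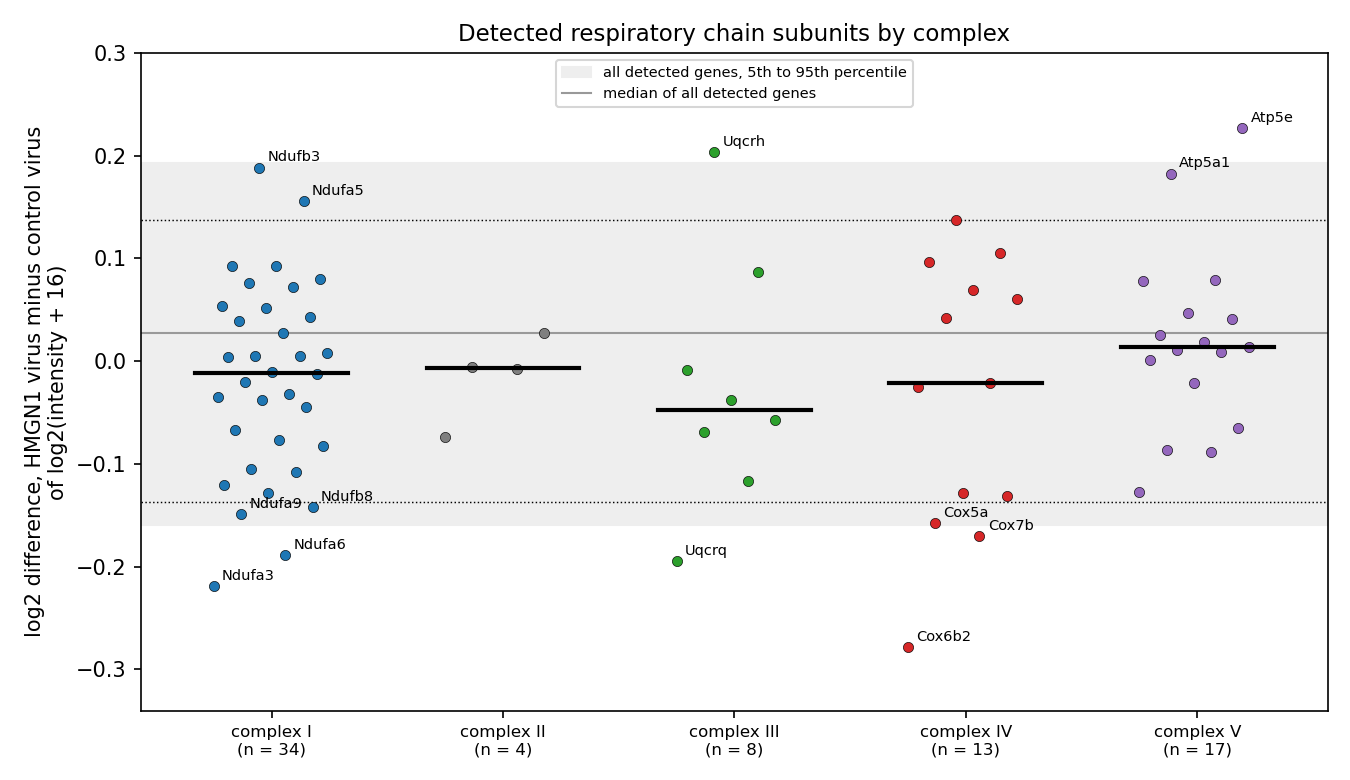
Each point is a detected subunit gene, placed by complex, with its log2 difference (HMGN1 virus minus control virus, 1 array each) on the vertical axis; black bars are medians over genes, dotted lines mark 1.1-fold and named genes lie beyond it. The 5 medians lie between -0.048 and 0.014 while members of complexes I and III to V spread on both sides of 0.

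The medians of the 5 complexes lay between -0.048 and 0.014, and genes of the same complex spread on both sides of them. The median difference was -0.011 for complex I (34 detected, SD over genes 0.0950), -0.0068 for complex II (4, SD 0.0424), -0.048 for complex III (8, SD 0.123), -0.022 for complex IV (13, SD 0.130) and 0.014 for complex V (17, SD 0.0907). The share of members below 0 was lowest in complex V, at 5 of 17 (29.4%). It was 18 of 34 in complex I (52.9%), 3 of 4 in complex II, 6 of 8 in complex III and 7 of 13 in complex IV (53.8%). Of all detected genes 38.4% were below 0, so complex V lay under that share and the other complexes over it. The positive median of complex V became -0.013 after centring and -0.021 with the intensity trend removed, and the median of complex IV became 0.019 with the mean of each gene's probe sets. Genes of a complex are not replicates, so no test of complex against complex was made.

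**Figure D2:**
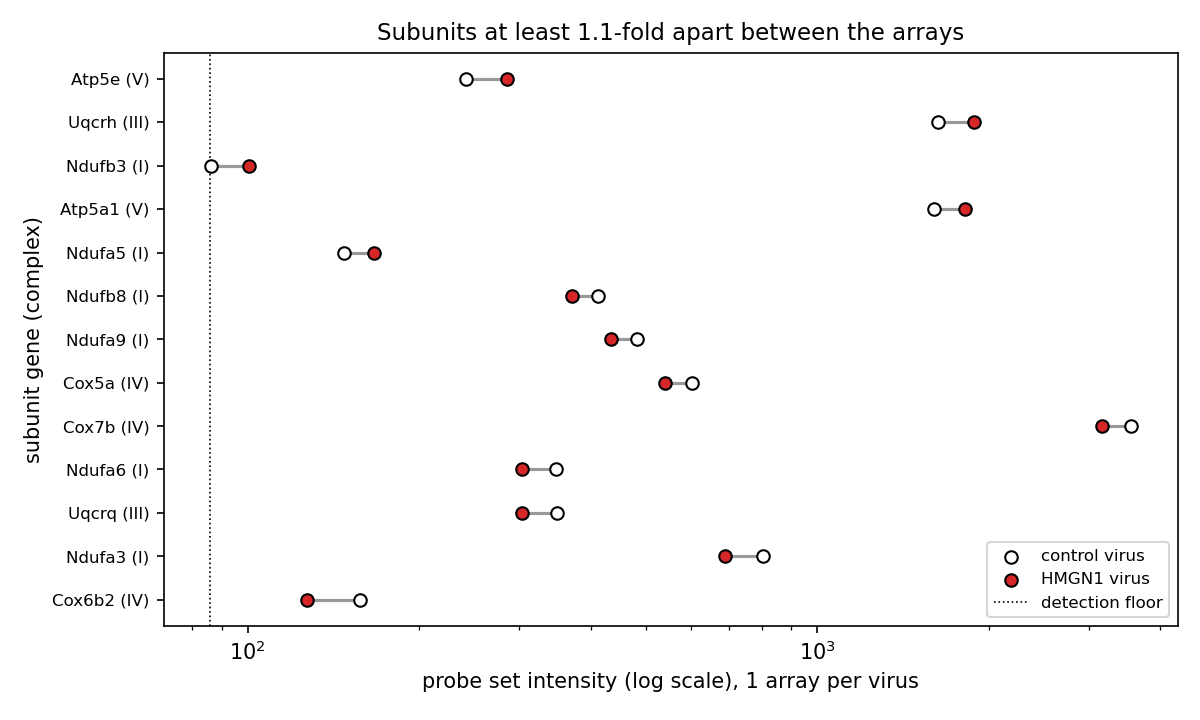
The 13 subunits at least 1.1-fold apart, with the control virus array as open points and the HMGN1 virus array as filled points; the horizontal axis is probe set intensity on a log scale and the dotted line is the detection floor. The shifts are small in all of them, the widest being Cox6b2 from 157 to 127.

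The promoters of the members were searched for 3 short motifs, each of which stood in a minority of them. RefSeq promoter windows of 300 bases (250 before to 50 after the annotated start, GRCm38.p6) were found for 66 of the 81 genes, in 71 windows. The core of the NRF1 site (CGCATGCG, a palindrome), named after a regulator of respiratory genes, stood in 12.7% of member windows, in 3.84% of 11528 windows of other detected genes and in 1.87% of all 32851 windows. This shortened form was adopted after the counts of a longer one were seen. The ETS core that GABP binds (CCGGAAG, both strands) stood in 23.9% of member windows, 16.9% of those of other detected genes and 8.86% of all. A YY1 core (AAGATGGC, both strands) stood in 14.1%, 4.31% and 2.75%. Median GC content was 57.3% in member windows, 61.3% in those of other detected genes and 52.7% in all, so the higher shares did not go with a higher GC content than in other detected genes. A match describes the letters in the window and no binding was measured.

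The NRF1 core was present in 9 members, of complexes I, III, IV and V. Stretches of 58 bases around it are shown for 5 of them, to let a reader see the letters that members of different complexes share; the NRF1 core is in capitals and all are written 5′ to 3′ on the gene's strand (GRCm38.p6).
Ndufa11 (chr17:56717678-56717735, + strand): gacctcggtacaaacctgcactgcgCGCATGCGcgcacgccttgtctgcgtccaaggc
Cox6a1 (chr5:115349087-115349144, - strand): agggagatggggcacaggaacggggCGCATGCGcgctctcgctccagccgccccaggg
Atp5g2 (chr15:102671056-102671113, - strand): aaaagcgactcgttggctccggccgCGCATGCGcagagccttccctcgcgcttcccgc
Atp5j (chr16:84835091-84835148, - strand): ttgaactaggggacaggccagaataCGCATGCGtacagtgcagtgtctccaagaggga
Atp5k (chr5:108434416-108434473, - strand): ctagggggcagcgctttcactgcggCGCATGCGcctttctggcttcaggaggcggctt
Counted from the start, with -1 the base before it, the core begins at -59 in Ndufa11, -161 in Cox6a1, -41 in Atp5g2, -147 in Atp5j and -49 in Atp5k. It also stands in the windows of Ndufa8 (-9), Uqcr11 (-5), Atp5l (-241) and Uqcrc1 (32). The differences of these 9 genes ran from -0.13 (Cox6a1) to 0.025 (Atp5k), and 7 of the 9 were lower with the HMGN1 virus, beside 25 of the 55 detected members whose windows lack the core. Their median was -0.037, beside 0.0048 without the core. That median is the value of Ndufa11 on its brighter probe set, and its other probe set gave 0.056. Atp5l, also among the 9, ran from -0.065 to 0.0086 over its probe sets, while the other probe set of Uqcr11 gave -0.19. For the ETS core the medians were -0.0076 with it (17 members) and 0.00090 without it (47), and for the YY1 core 0.0044 (10) and -0.0068 (54).

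Complex I is the largest group and held members at both ends. Its 6 measured core subunits, which bind NADH, carry the iron-sulfur clusters and pass electrons to ubiquinone, lay near control. Ndufv1, which holds the flavin that accepts electrons from NADH, stood at 494 on the control array and 496 on the HMGN1 array (0.0048). Its partner Ndufv2 stood at 1743 and 1748 (0.0041), and the iron-sulfur subunit Ndufs1 at 443 and 433 (-0.032). The core subunits of the quinone-reducing part differed by 0.043 (Ndufs3), 0.028 (Ndufs7) and -0.012 (Ndufs8). All 6 core subunits thus lay within -0.032 and 0.043, with a median of 0.0044. Of these 6 genes, a small group, 0 passed 1.1-fold, beside 13.1% of all detected genes upwards and 7.2% downwards.

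The 28 detected accessory subunits of complex I, which surround the core and are needed for its assembly and stability, spread from -0.22 to 0.19 with a median of -0.028. Of these, 4 were at least 1.1-fold lower (14.3%) and 2 at least 1.1-fold higher (7.14%), beside 7.2% and 13.1% of all detected genes. Ndufa3, a small subunit of the membrane arm, was lowest, at 803 on the control array and 687 on the HMGN1 array (-0.22, 1.16-fold lower). Ndufa6, a subunit of the LYR family, stood at 348 and 303 (-0.19). Ndufa9, a subunit near the quinone site, stood at 483 and 434 (-0.15), and Ndufb8, a membrane arm subunit, at 411 and 371 (-0.14). In all 4 the HMGN1 array was the dimmer. Below that size Ndufa7 differed by -0.13, Ndufb7 by -0.12, Ndufc1 by -0.11 and Ndufa12 by -0.10.

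At the other end, Ndufb3 of the membrane arm stood at 86.3 and 101 (0.19), its control value lying at the detection floor. Ndufa5 of the matrix arm stood at 148 and 166 (0.16) and fell short of 1.1-fold after centring, with the intensity trend removed and with an offset of 64. Both are dim genes. Among the 3863 detected genes up to 172 in intensity, 13.3% were at least 1.1-fold higher and 12.2% at least 1.1-fold lower, so a value past that size was frequent there in both directions. Among the 7462 brighter genes the shares were 13.0% and 4.62%. Of the accessory subunits with further roles, Ndufs4, which is fitted late into the complex, stood at 1410 and 1488 (0.076), and Ndufa13, also known as the cell death regulator Grim19, at 463 and 480 (0.051). The remaining accessory subunits lay between -0.083 and 0.093. Ndufb4 lay outside the symbol rule because its probe sets also name Ndufb4b, and these gave -0.10 and -0.082.

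**Figure D3:**
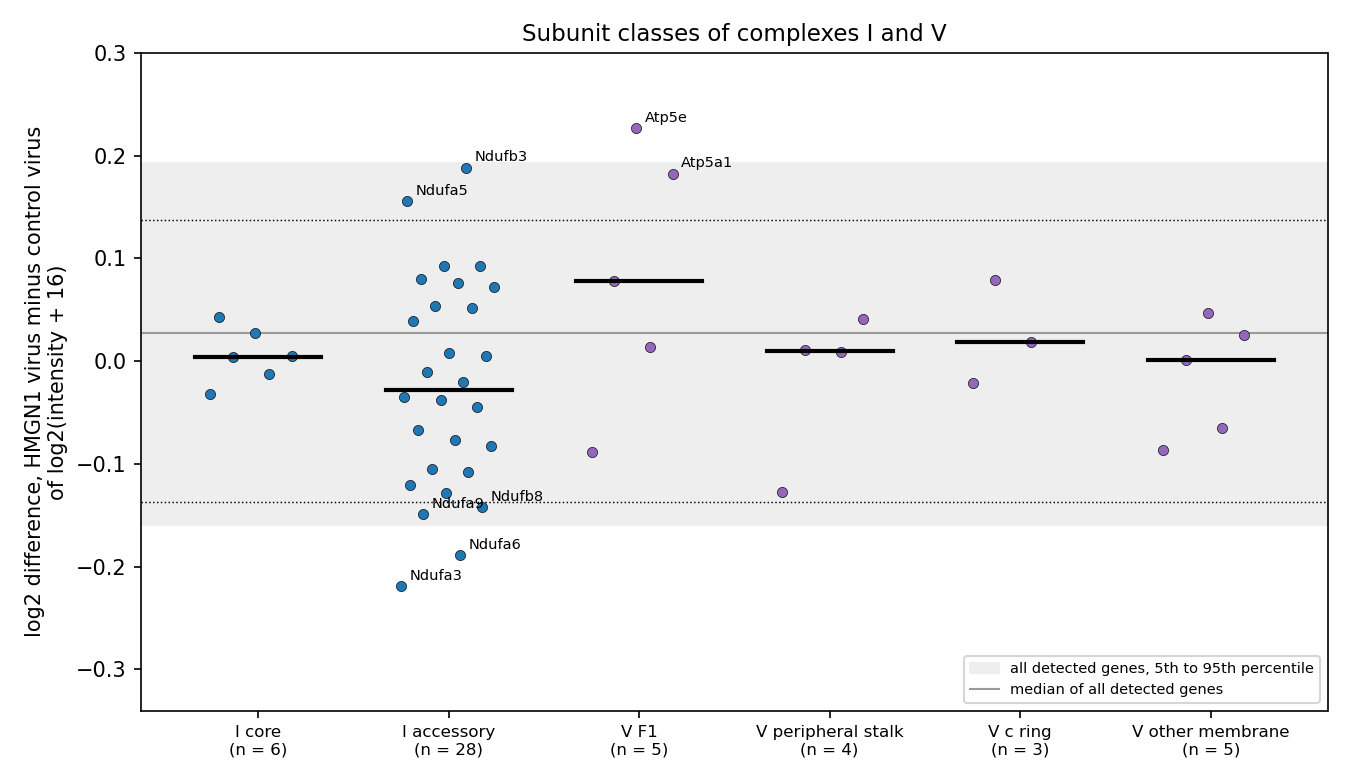
Detected subunits of complexes I and V by structural class, with the log2 difference (HMGN1 virus minus control virus) on the vertical axis and black bars at class medians; grey marks the 5th to 95th percentile of all detected genes. The 6 core subunits of complex I lie within -0.032 and 0.043, whereas the 28 accessory subunits run from -0.22 to 0.19.

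A YY1 core was found in the windows of 3 of the 4 complex I genes past 1.1-fold on the low side (Ndufa3, Ndufa9 and Ndufb8) and in that of Ndufc1. This grouping was noticed after the values were seen. The same letters stood in the windows of Ndufs4 (0.076), Ndufs6 (0.0078) and Ndufs7 (0.028), which were not lower, and of Atp5j, Atp5j2 and Atp5pb in complex V. In the 7 complex I genes the match began 23 to 39 bases after the annotated start. The windows of Ndufb3 (0.19), the highest detected complex I gene, and of Cox6b2 (-0.28), the lowest detected member, held none of the 3 motifs. Genes with the YY1 core thus lay on both sides of 0, and a link between a motif and the difference was not tested. The 250 bases before the start of Ndufa3, the lowest complex I gene, are shown and also hold none of them (GRCm38.p6).
Ndufa3 (chr7:3617123-3617372, + strand): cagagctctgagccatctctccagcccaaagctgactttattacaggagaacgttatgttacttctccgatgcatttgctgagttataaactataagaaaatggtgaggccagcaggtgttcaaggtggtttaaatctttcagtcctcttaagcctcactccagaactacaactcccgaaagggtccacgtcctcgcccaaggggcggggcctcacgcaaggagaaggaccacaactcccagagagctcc

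Complex II, the succinate dehydrogenase that also serves the citric acid cycle, held no member past 1.1-fold on the deposited values. Its flavoprotein Sdha stood at 657 and 654 (-0.0059) and its iron-sulfur subunit Sdhb at 798 and 794 (-0.0076). The membrane anchors were Sdhc at 1226 and 1164 (-0.074) and Sdhd at 337 and 344 (0.028). Each of the 4 differed by less than the SD of 0.0891 between probe sets of 1 gene, and the median of the 4 was -0.034 after centring and -0.024 under quantile normalization.

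Complex III held 1 of 8 members past 1.1-fold in each direction (12.5%), beside 13.1% of all detected genes upwards and 7.2% downwards. Uqcrh, the acidic hinge protein that helps cytochrome c dock, stood at 1631 and 1880 (0.20, 1.15-fold higher). Uqcrq, a small subunit near cytochrome b, stood at 350 and 304 (-0.19, 1.14-fold lower). The small subunit Uqcr10 stood at 375 and 345 (-0.12), and Uqcrb at 1634 and 1557 (-0.069). Uqcr11, another small subunit, stood at 642 and 616 (-0.058) on its brighter probe set and at 379 and 330 (-0.19), past 1.1-fold, on the other. The large core proteins Uqcrc1 (742 and 723, -0.038) and Uqcrc2 (1455 and 1447, -0.0083) were near control, and the Rieske iron-sulfur protein Uqcrfs1 stood at 219 and 234 (0.087). Of the 8 members 2 were higher and 6 lower. The promoter of Uqcrh is shown because it was the highest complex III gene and holds the ETS core, in capitals on the opposite strand, beginning at -10 (GRCm38.p6).
Uqcrh (chr4:116075071-116075320, - strand): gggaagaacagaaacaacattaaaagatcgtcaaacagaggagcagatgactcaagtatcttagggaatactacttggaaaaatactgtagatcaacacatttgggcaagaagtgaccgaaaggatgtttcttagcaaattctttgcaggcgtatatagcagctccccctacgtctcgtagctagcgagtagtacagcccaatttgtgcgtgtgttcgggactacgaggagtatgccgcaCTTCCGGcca

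In complex IV 3 of 13 detected members (23.1%) were at least 1.1-fold lower and 0 at least 1.1-fold higher. Among all detected genes the shares were 7.2% and 13.1%. The lower members were Cox5a, Cox7b and the dim testis form Cox6b2, which is given with the isoforms below. Cox5a, a subunit on the matrix side, stood at 603 and 539 (-0.16). Cox7b stood at 3559 and 3161 (-0.17) on its brighter probe set and at 1038 and 956 (-0.12) on the other. Cox6a1 (1030 and 939, -0.13) and Cox7a2 (609 and 555, -0.13) were just short of that size. On the high side Cox6b1, which joins complex IV dimers, stood at 2239 and 2463 (0.1371), just short of the 0.1375 of 1.1-fold, and Cox8a at 1627 and 1740 (0.096). Cox6b1 passed 1.1-fold with an offset of 1 (0.138) and under quantile normalization (0.16), and fell short under the other settings. Cox4i1, the ubiquitous form of the largest nuclear-encoded subunit, stood at 561 and 553 (-0.022), and Cox5b at 1019 and 1050 (0.042). Cox6c gave 0.070 on its brighter probe set and -0.032 on the other, and Cox7a2l, a relative of Cox7a2 that helps complexes III and IV associate, gave -0.025 and 0.078. Cox7c lay outside the symbol rule because its probe sets also name the gene copy Gm12338, and these 3 probe sets gave -0.11, -0.072 and -0.14. Ndufa4, which carries a complex I name but is now known as a complex IV subunit, stood at 382 and 393 (0.040), and counting it in complex IV gave that complex a median of 0.0091.

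Several complex IV subunits exist as tissue isoforms, and the forms of heart, muscle, lung or testis were near or under the detection floor. Of 8 such isoforms 3 were detected, against 7 of 7 of their common counterparts. Cox4i2, the lung form induced by low oxygen, stood at 81.0 and 73.2, the testis forms Cox7b2 at 17.9 and 11.8 and Cox8c at 82.5 and 83.5, the muscle form Cox8b at 69.9 and 81.4, and Ndufa4l2, another gene induced by low oxygen, at 44.0 and 54.1. The muscle forms Cox6a2 (132 and 143) and Cox7a1 (98.5 and 103) were detected close to the floor. The testis form Cox6b2 stood at 157 and 127 (-0.28, 1.21-fold lower). It was the lowest of all detected members in 10 of 11 settings, the exception being the one that kept dim genes. Its intensity lay in the range where 12.2% of detected genes were at least 1.1-fold lower. The muscle markers Ckm (106 and 94.5) and Acta1 (93.4 and 83.5) were also just above the floor, while Myh3 and Myog were under it. Of the members closest to the floor, Ndufb3 and Cox7a1 lay just over it, and Cox8c and Cox4i2 just under it.

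Complex V had the highest median of the 5 complexes in 10 of 11 settings, all but the mean of each gene's probe sets. On the deposited values its members past 1.1-fold were 1 gene of the catalytic head (Atp5a1) and 1 of the central stalk (Atp5e), which together form the F1 part. The alpha subunit Atp5a1 stood at 1600 and 1818 (0.18, 1.13-fold higher) and the beta subunit Atp5b, which carries the catalytic sites, at 4114 and 4344 (0.078). In the central stalk, the gamma subunit Atp5c1 stood at 1129 and 1140 (0.014), the delta subunit Atp5d at 3746 and 3523 (-0.088) and the epsilon subunit Atp5e at 242 and 286 (0.23, 1.17-fold higher). Atp5e had the largest positive difference of the detected members in 8 of 11 settings; Uqcrh exceeded it under quantile normalization and with an offset of 64, and Ndufb3 under quantile normalization and with the intensity trend removed. Of the 5 genes of this F1 part, 4 were higher and 2 passed 1.1-fold, with a median of 0.078. Among all detected genes 60.1% were higher at any size. Atp5a1 and Atp5e stayed past 1.1-fold under all 11 settings. In complex V as a whole 11.8% of members were at least 1.1-fold higher, beside 13.1% of all detected genes. Among the 12 complex V genes outside F1, 0 passed 1.1-fold on the deposited values, and Atp5h of the peripheral stalk passed it after centring (-0.15) and with the intensity trend removed (-0.16).

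In the peripheral stalk, which holds the head still, Atp5h stood at 1469 and 1344 (-0.13), and its 3 probe sets gave -0.12 to -0.13. The other stalk genes Atp5pb (0.011), Atp5j (0.0090) and Atp5o, the subunit that ties stalk to head (0.041), were near control. The proton-carrying c ring is built from a protein encoded by 3 genes, which differed by 0.019 (Atp5g1, 1654 and 1676), -0.021 (Atp5g2, 2245 and 2212) and 0.079 (Atp5g3, 1412 and 1492). Among the small membrane subunits Atp5l gave -0.065 on its brightest probe set and -0.065 to 0.0086 over 6 probe sets, Atp5md gave -0.087 to -0.15 over 3, and Atp5k (0.025), Atp5j2 (0.00090) and Atp5mpl (0.046) were close to 0. The promoter of Atp5e is shown because it was the highest member on the deposited values; it holds the ETS core, in capitals, on the opposite strand and beginning at -102 (GRCm38.p6).
Atp5e (chr2:174464102-174464351, - strand): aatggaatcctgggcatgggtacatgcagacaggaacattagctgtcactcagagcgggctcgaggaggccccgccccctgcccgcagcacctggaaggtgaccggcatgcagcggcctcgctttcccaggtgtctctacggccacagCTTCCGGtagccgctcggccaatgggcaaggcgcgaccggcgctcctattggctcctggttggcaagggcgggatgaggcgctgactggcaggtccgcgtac
Among the other ETS-core members Atp5h differed by -0.13 and Cox6b1 by 0.14, so genes with these letters stood at both ends.

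Repeated probe sets give a check on the size of such differences. Of the members, 16 had several probe sets, 40 in all, and their differences scattered around the gene's own mean with an SD of 0.0391, beside 0.0891 over all 683 genes. In 5 of the 16 (Atp5l, Atp5pb, Cox6c, Cox7a2l and Ndufa11) the probe sets went both ways, all of them within -0.065 and 0.078. Probe sets of 1 member can also catch near-identical copies of the gene, so their values are uncertain. Of the 76 detected members 8 lay beyond 2 times the SD of 0.0891, or 10.5%, against 10.4% of all detected genes.

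**Figure D4:**
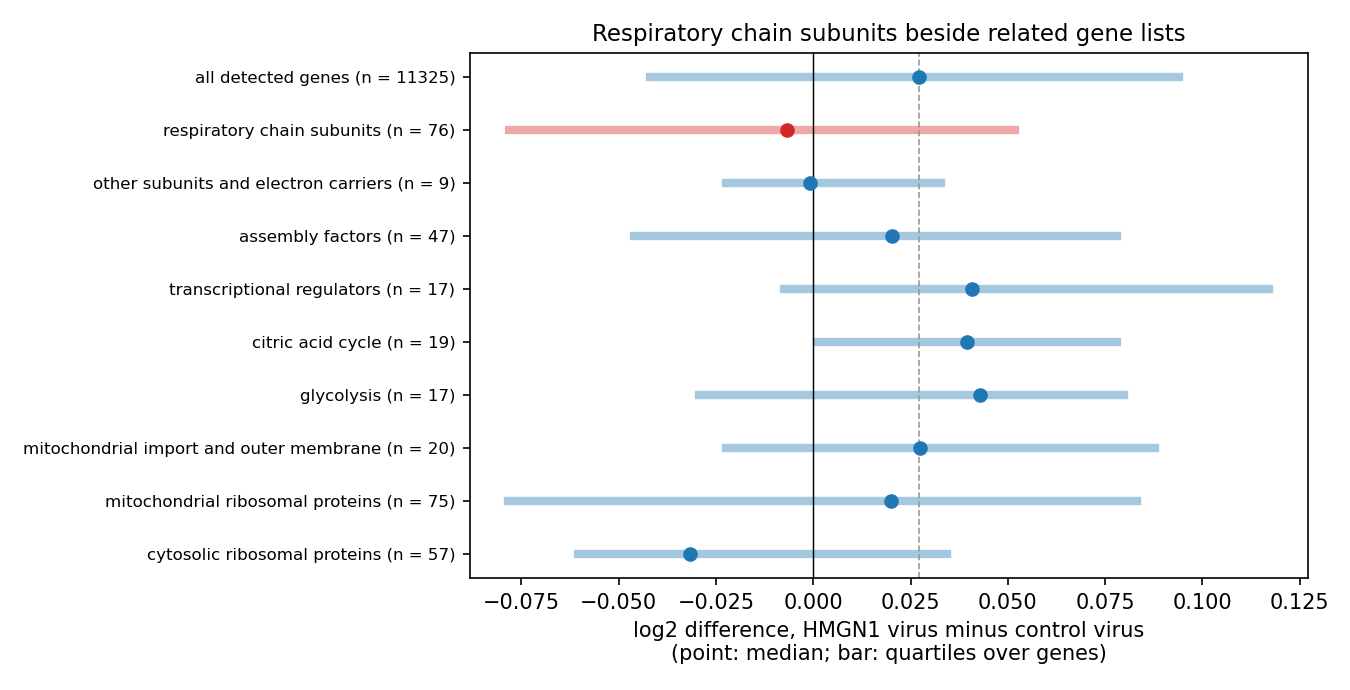
Medians (points) and quartiles over genes (bars) of the log2 difference, HMGN1 virus minus control virus, for the respiratory chain subunits and related gene lists; n is the number of detected genes and the dashed line is the median of all detected genes. Respiratory chain subunits (-0.0068) lie below the citric acid cycle (0.039) and above the cytosolic ribosomal proteins (-0.032), with overlapping quartiles.

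Genes that work with the respiratory chain were read beside its subunits. Of 9 detected subunits and carriers that the symbol rule leaves out, 4 were higher and 5 lower (median -0.00093). At least 1.1-fold higher were 0 of them and at least 1.1-fold lower 2 (22.2%), beside 13.1% and 7.2% of all detected genes. Cytochrome c (Cycs), which carries electrons from complex III to complex IV, stood at 2402 and 2088 (-0.20) and was the lowest, while Cyc1, the cytochrome of complex III itself, stood at 861 and 860 (-0.0016). The glycerol phosphate shuttle enzyme Gpd2 was highest at 174 and 193 (0.13). The ATP synthase inhibitor Atpif1 stood at 5507 and 5634 (0.033). Assembly factors had a median of 0.020 (47 detected, 26 higher and 20 lower). At least 1.1-fold higher were 4 of them (8.51%) and at least 1.1-fold lower 3 (6.38%), beside the same 13.1% and 7.2%.

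By complex, assembly factors had medians of 0.042 for complex I (13), 0.033 for complex II (3), -0.037 for complex III (5), -0.011 for complex IV (21) and 0.090 for complex V (5). Bcs1l, which inserts the Rieske protein into complex III, was the highest of them at 205 and 254 (0.29). The Rieske gene Uqcrfs1 itself differed by 0.087, less than the SD of 0.0891 between probe sets of 1 gene. The lowest in complex III was Uqcc3 (120 and 111, -0.098). Complex I factors ran from Ndufaf3 (369 and 325, -0.18) to Ndufaf2 (105 and 123, 0.20), and complex IV factors from Higd1a (99.2 and 88.3, -0.14) to Coa7 (106 and 123, 0.20). The complex V factors ran from Tmem70 (170 and 151, -0.16) to Atpaf2 (131 and 143, 0.12), and the complex II factors from Sdhaf1 (0.030) to Sdhaf3 (174 and 200, 0.18).

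Of 17 detected regulators of respiratory genes 12 were higher and 5 lower, beside 60.1% and 38.4% of all detected genes. Their median was 0.041, with 1 at least 1.1-fold higher (5.88%, beside 13.1% of all detected genes) and 0 at least 1.1-fold lower (beside 7.2%). The gene past 1.1-fold was Ppargc1a, the coactivator PGC-1alpha that drives mitochondrial biogenesis, at 214 and 252 (0.22). The GABP subunits Gabpa (487 and 534, 0.13) and Gabpb1 (238 and 261, 0.12), the factor Nrf1 (272 and 284, 0.058) and the mitochondrial DNA factor Tfam (115 and 121, 0.067) were below that size, Yy1 stood at -0.0075 and Sp1 was lowest at -0.076. Citric acid cycle genes had a median of 0.039, with 14 of 19 higher and 3 lower, 2 at least 1.1-fold higher and 0 at least 1.1-fold lower. They ran from Pdhb (-0.098) to Pdha1, which feeds pyruvate carbon into the cycle (554 and 646, 0.22). Glycolysis genes had a median of 0.043, with 12 of 17 higher, between Tpi1 (-0.11) and Pfkp (0.16). These medians lie near the 0.027 of all detected genes, and the counts of the 3 lists are to be read beside the shares of all detected genes given above.

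Mitochondrial import and outer membrane genes had a median of 0.027 (20 detected, 14 higher), between the import receptor Tomm22 (636 and 524, -0.27) and the inner membrane channel Timm23 (812 and 938, 0.20). Mitochondrial ribosomal proteins, which translate the subunits encoded in mitochondrial DNA, had a median of 0.020 (75 detected, 43 higher and 32 lower). They ran from Mrpl57 (392 and 316, -0.30) to Mrpl45 (156 and 190, 0.27), with 9 at least 1.1-fold higher (12.0%) and 7 at least 1.1-fold lower (9.33%). These shares were near the 13.1% and 7.2% of all detected genes, of which 60.1% were higher at any size. Cytosolic ribosomal proteins had a median of -0.032, with 37 of 57 lower but only 1 past 1.1-fold in each direction, the lowest being Rpl14 (-0.20) and the highest Rps4l (0.20). The respiratory chain subunits had a lower share on the low side (39 of 76) than that group and wider quartiles.

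Subunits encoded in mitochondrial DNA are partners of the nuclear-encoded ones in the same complexes, and 2 of the 13 had probe sets of their own. COX2, a core subunit of complex IV, stood at 8269 on the control array and 7613 on the HMGN1 array (-0.12), and its other probe set also gave -0.12. ND3, a core subunit of complex I, stood at 4128 and 3574 (-0.21) on its brighter probe set and at 1971 and 1683 (-0.23) on the other. A further 3 probe sets also name a nuclear gene, 2 of them with ATP6 of complex V (-0.16 and -0.18) and 1 with ND6 of complex I. The ND6 probe set, by far the dimmest of these, stood at 179 and 127 (-0.44). All 7 of these probe sets were lower with the HMGN1 virus, beside 38.4% of detected genes. COX2 ran from -0.055 with the span trend removed to -0.15 after centring, and ND3 from -0.13 to -0.23 under the same settings. Probe sets of 1 gene share its transcript, and copies of mitochondrial sequence in the nuclear genome can share their signal, so the 7 are not independent.

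Most respiratory chain genes are short, and on these arrays short genes had lower differences as a group. The median gene span, introns included, was 7.15 kb for the 76 detected members and 24.9 kb for 10880 detected protein-coding genes. Among 4605 other protein-coding genes with spans of 2.37 to 22.6 kb, the range of the middle 80% of the members, the median difference was 0.0095 and 44.7% were lower, beside -0.0068 and 51.3% for the members. Of these genes 10.7% were at least 1.1-fold higher and 8.53% at least 1.1-fold lower, closer to the 6.58% and 10.5% of the members than the shares of all detected genes. Within the members span and difference gave Spearman's rho of -0.049 and Pearson's r of 0.0042 (with the log of span) across 76 genes, which share the 2 arrays and are not independent. The 38 members with the shorter spans had a median of 0.0049 and the 38 with the longer spans -0.0080. With the span trend removed the median of all members was -0.021. Members were bright as well as short: 6809 other detected genes in the same range of intensity had a median of 0.038, and 33.2% of them were lower.

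**Figure D5:**
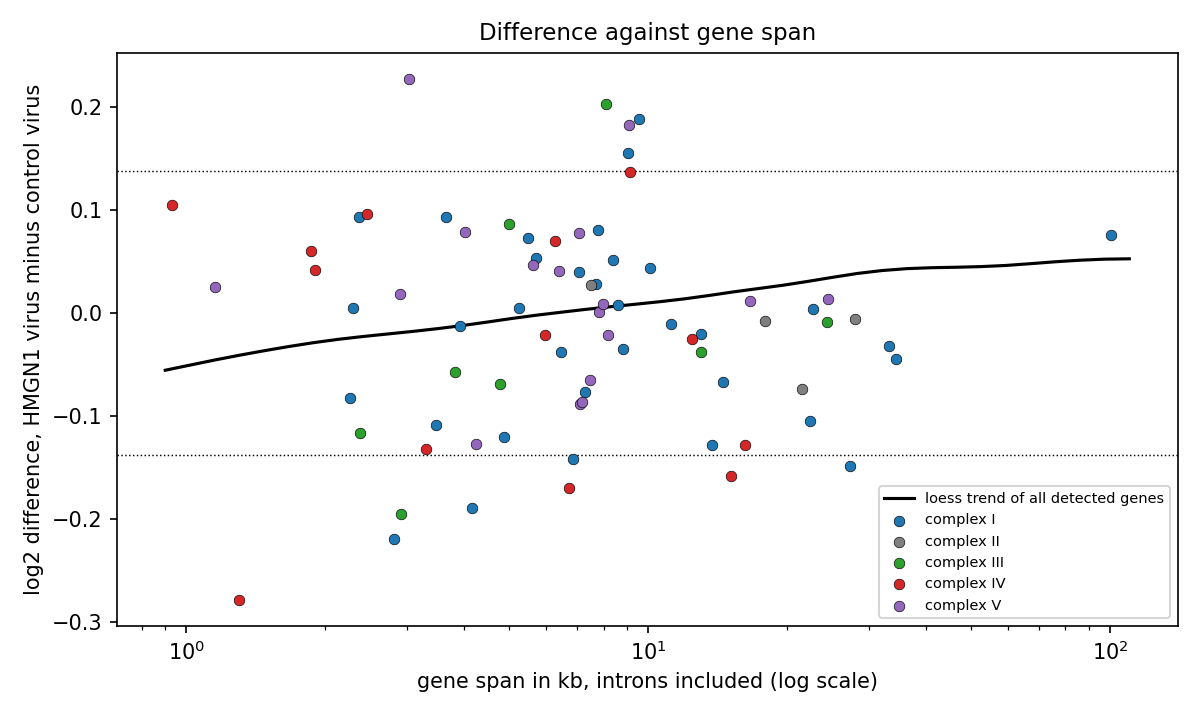
The log2 difference of each detected member (vertical axis, HMGN1 virus minus control virus) against its gene span in kb (log scale), coloured by complex; the line is the loess trend of all detected genes and dotted lines mark 1.1-fold. Members with short and long spans lie on both sides of the trend, and rho within the members is -0.049.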

How the data were processed

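Total RNA was labelled with biotin for GeneChip whole-transcript arrays (per the labels), 1 array per virus. Intensity on a linear scale was deposited for 28944 probe sets, with array medians of 101 and 98.8; background correction and normalization by the authors are not given in the sources used here. They were used as deposited. GEO's platform annotation gave 21789 probe sets 1 symbol and 1621 several, and 5534 were unnamed. All 81 members matched the RefSeq table (GRCm38.p6) by gene number with no change of symbol. Subunits encoded in mitochondrial DNA were matched by gene number, because the annotation writes their symbols without the prefix the list was first given by.

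A gene's value came from the probe set with the highest mean. Counts used 1.1-fold. The members, lists, motifs, sizes and alternatives were chosen with earlier results of these data known. Named were, per complex, the 2 members with the highest and the 2 with the lowest difference, core subunits, isoform families, members with probe sets of opposite sign and the ends of each list; other names were chosen after their values were seen. The NRF1 core is a shortened form of a longer one, adopted after the counts of the longer one were seen. Alternatives were quantile normalization, centring, loess removal of intensity or span trends (span 0.3), offsets of 1 and 64, means of probe sets, other floors and probe sets of several genes. Analyses ran in Python 3.11.15 with pandas 2.3.3 and statsmodels 0.14.6, and the counting was tested on simulated data. The number of arrays limits the precision.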

Additional observations from a re-analysis of the deposited data

How the results depend on the processing

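No paired analysis was possible because a single array stands for each virus, which also leaves no replicate to omit. The count of members at least 1.1-fold lower, 8, became 14 after centring and 16 with the intensity trend removed, where 10.5% and 9.72% of all detected genes were at least 1.1-fold lower; it became 0 at a log2 difference of 0.32 and 0 at 1.5-fold. The count at least 1.1-fold higher, 5, became 3 with an offset of 64, 0 at a log2 difference of 0.32 and 0 at 1.5-fold. The changes of size act by construction, as do centring, which lowers every difference by 0.027, and the larger offset, which compresses differences; for the intensity trend the cause was not tested. The median of all members ran from -0.042 with the intensity trend removed to 0.0025 over members with 1 probe set, the only setting in which it was above 0, and under the 11 settings of normalization, offset, floor and probe set choice it lay 0.013 to 0.042 below that of all detected genes. Of the 13 members past 1.1-fold, 9 stayed past it under all 11 settings; Ndufa9, Ndufb3 and Ndufb8 did not with an offset of 64, and Ndufa5 did not under 3 settings. Moving Ndufa4 to complex IV, and keeping only members with 1 probe set, were chosen after seeing the data. Of 51 members recomputed singly, the dim Cox7b2 (-0.57 with an offset of 1, -0.11 with 64) and Ndufa4l2 (0.13 with 64) moved by more than 0.0891; genes of the related lists were not recomputed singly, except COX2 and ND3, whose settings were chosen after seeing the data. Low signal limits the isoforms near the floor.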
